A study of Mus musculus with 27 samples.

Results

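The integrin and laminin subunit genes are described here in the irradiated mouse rectum. They were chosen by symbol, as every gene of the count table named as an integrin alpha or beta subunit or as a laminin alpha, beta or gamma chain, without the integrin-binding and integrin-like genes whose symbols start alike. This gave 37 of the 19690 genes, 26 integrin subunits and 11 laminin chains. By where each is best known they were sorted into 9 leukocyte integrins (Itgal, Itgam, Itgax, Itgad, Itgb2, Itgb2l, Itgae, Itga4 and Itgb7), 6 epithelial integrins (Itga2, Itga3, Itga6, Itgb4, Itgb6 and Itgb8), 11 stromal integrins and the 11 laminin chains, some of them best known from epithelium (such as Lama3, Lama5 and Lamb3) and others from vessels and stroma. The classes are a convention, since several subunits, such as Itgb1, the common partner of many alpha subunits, are made by most cells.

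RNA was sequenced from the rectum of 27 female C57BL/6 mice (C57BL/6J in the study's methods), 8 to 10 weeks old at the start, in 9 groups of 3. In 5 groups a single X-ray dose of 25 Gy had been given to the lower pelvis, and the rectum was taken 4 h or 1 day, 3 days or 2 weeks, or 8 weeks later. The other 4 groups were anesthetized and sham-irradiated, and were taken at each of these times except 1 day. The controls of 4 h served the comparisons at both 4 h and 1 day, which therefore share them.

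Integrins are cell surface receptors made of 1 alpha and 1 beta subunit, which bind matrix or other cells outside and the cytoskeleton inside. Laminins are trimers of an alpha, a beta and a gamma chain that build the basement membrane under epithelium and around vessels, muscle and nerve, and many of them are integrin ligands. In the gut, the laminin with the alpha5 chain lies under the surface epithelium and around vessels, the integrin of Itga6 and Itgb4 anchors epithelium in hemidesmosomes, and integrins with Itgb2 or Itgb7 carry leukocytes out of the blood and hold them in the mucosa.

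Promoter sequence is shown for a member whose level was higher at every time point (Lama5), for the beta chain that rose while its relative Lamb2 did not pass the test (Lamb1), and for a myeloid subunit that rose at 2 and 8 weeks (Itgam). Each runs 5′ to 3′ from 250 bases before the start of the gene to 50 bases after it, from RefSeq on GRCm38.p6, and 23 of the 37 members had such an entry. Capitals mark a pair of motifs, searched on both strands, that do not overlap each other here. The first is the box known as GGGCGG, bound by Sp factors. When it lies on the opposite strand it is printed as CCGCCC. The second is the core of sites for the myeloid factor PU.1, written GAGGAA. From the opposite strand it is printed as TTCCTC.
Lama5, chr2:180225810-180226109, minus strand: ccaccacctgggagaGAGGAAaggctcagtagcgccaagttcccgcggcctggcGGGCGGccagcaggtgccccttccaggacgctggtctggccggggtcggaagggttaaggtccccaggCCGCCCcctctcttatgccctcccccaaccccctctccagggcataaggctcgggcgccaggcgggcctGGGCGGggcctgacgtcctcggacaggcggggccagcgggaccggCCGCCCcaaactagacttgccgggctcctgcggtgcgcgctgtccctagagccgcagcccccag
Lamb1, chr12:31265043-31265342, plus strand: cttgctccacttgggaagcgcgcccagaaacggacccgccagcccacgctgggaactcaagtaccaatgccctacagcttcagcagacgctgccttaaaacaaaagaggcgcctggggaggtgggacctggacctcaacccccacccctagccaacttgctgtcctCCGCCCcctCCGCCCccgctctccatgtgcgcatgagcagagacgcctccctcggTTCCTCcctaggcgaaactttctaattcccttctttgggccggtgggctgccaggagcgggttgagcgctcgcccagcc
Itgam, chr7:128062390-128062689, plus strand: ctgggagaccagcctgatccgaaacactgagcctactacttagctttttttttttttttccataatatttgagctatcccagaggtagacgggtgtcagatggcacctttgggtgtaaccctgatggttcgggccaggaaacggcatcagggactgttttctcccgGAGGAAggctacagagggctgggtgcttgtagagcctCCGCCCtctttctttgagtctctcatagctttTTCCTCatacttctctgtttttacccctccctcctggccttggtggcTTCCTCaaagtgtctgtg
The Lama5 window held 4 GC boxes and 1 GAGGAA core, the Lamb1 window 2 and 1, and the Itgam window 1 and 3. Of 32851 promoters of the same length, 35.7% held at least 1 GC box and 28.3% at least 1 GAGGAA core. The AP-1 motif TGANTCA, found in 7.81% of promoters, and a p53 half-site, found in 8.36%, were not among the letters of these 3 windows. A match is a description of the sequence only, and no binding was measured.

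Libraries held 17966356 to 23281174 counts (median 19777800), and every pair of replicates differed by more than sampling noise. A piece of rectum mixes epithelium, muscle, vessels and immune cells, and in such bulk tissue fewer cells of a type and less RNA per cell cannot be told apart. Markers of these cells moved with the groups. The summed level of 9 leukocyte markers (Ptprc, S100a8 and others) was 62.9 to 99.2 CPM in the controls of 2 weeks and 1247 to 18720 CPM in the irradiated mice, and irradiated replicate 2 was the lowest of these. At 8 weeks it was 93.6 to 131.5 CPM against 648 to 1072 CPM, and in the controls of 3 days replicate 3 stood apart at 374 CPM against 57.1 and 104.7 CPM. Markers of squamous epithelium, 8 genes such as Krt5 and Krt14, summed to 4551 to 6024 CPM in the irradiated mice of 8 weeks and to 3.80 to 5.75 CPM in their controls. Single earlier libraries also held them, with 452 CPM in 1 irradiated mouse at 1 day and 93.3 CPM in 1 at 4 h. The sum of 6 fibroblast markers was 2365 to 4670 CPM against 438 to 816 CPM in the controls at 2 weeks and 2340 to 3010 CPM against 427 to 572 CPM at 8 weeks. Mast cell markers summed to 261 to 381 CPM in the irradiated mice of 3 days and to 35.1 to 54.4 CPM in their controls. This sum rests on few genes. In the test described below, 2 of the 5 mast cell markers passed the filter on low counts at 3 days and 1 was called higher. At 8 weeks irradiated replicate 3 held 1847 CPM of skeletal muscle markers, against 7.07 and 20.6 CPM in the other irradiated mice, and irradiated replicate 2 held 637 CPM of platelet markers, against 139 and 154 CPM. The sum of 8 columnar epithelium markers was 5731 to 10190 CPM against 10630 to 11240 CPM at 2 weeks and 7194 to 8686 CPM against 12040 to 13960 CPM at 8 weeks. In the test described below, 0 of the 8 were called lower and 1 higher at 2 weeks, and 5 lower and 1 higher at 8 weeks. Lower calls were made for 9.3% and 16.5% of all genes at these times. The part of these shifts in the values below was not tested.

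In the undisturbed rectum, epithelial adhesion genes and the shared beta subunit were at the top of the family. Per gene length, as FPKM in the controls of 4 h (mean ± SD, n = 3), the highest level was that of Itgb1 at 101 ± 2.58, followed by the hemidesmosome pair Itga6 at 63.5 ± 8.23 and Itgb4 at 60.2 ± 6.01. Close behind came Lamb3 at 58.1 ± 9.98, the beta chain of the anchoring laminin, and Itga3, an epithelial laminin receptor, at 43.2 ± 11. From Itga6 to Lamb3 neighbours in this order lay within each other's spread. Among the alpha chains Lama3 led at 20.1 ± 6.05, and Lama5 stood at 4.6 ± 1.26. The leukocyte subunits were between 0.01 FPKM (Itgad) and 1.85 FPKM (Itga4), and Lama1 was at 0.0697 FPKM.

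Irradiated mice were compared with their controls by edgeR's quasi-likelihood test on the counts, with p values adjusted by the Benjamini-Hochberg method over all genes tested, and a gene is called higher or lower below an adjusted p of 0.05. The unit of levels is CPM, the count scaled to library size with TMM factors, and values are listed in the order of replicates 1, 2 and 3. At 4 h, 1 of 36 members tested was called higher and 2 lower, where 5.78% of all genes tested were higher and 5.72% lower. At 1 day it was again 1 higher and 2 lower of 36, against 1.97% and 2.03% of all genes. At 3 days 17 of 35 were higher and 0 lower, and 10.4% and 10.1% of all genes were. At 2 weeks 15 of 36 were higher and 1 lower (16.5% and 9.3% of all genes), and at 8 weeks 17 of 36 were higher and 0 lower (21.5% and 16.5%). An unadjusted p under 0.05 was seen for 23 members at 3 days and 19 at 8 weeks, 1 of them lower at each time, and DESeq2 also called 1 lower at each. Itgad, with at most 7 counts in any library, was not tested at any time, and Itgb2l was not tested at 3 days, so that 35 members passed the filter on low counts in every comparison. The 2 groups did not overlap for 13 of 36 members at 4 h and 10 of 36 at 1 day, and for 34.3% and 24.2% of all genes. They were apart for 23 of 35 at 3 days, 19 of 36 at 2 weeks and 20 of 36 at 8 weeks, where 40.4%, 48.9% and 53.2% of all genes were, so that lack of overlap alone was common.

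The classes took up these counts unevenly. At 3 days the calls were 4 of 6 epithelial integrins, 4 of 11 stromal integrins and 9 of 11 laminin chains, with 0 of 7 leukocyte integrins. At 2 weeks 5 of 8 leukocyte integrins were higher, with a median log2 fold change of 4.05 over the 8, and 1 of 6 epithelial integrins, 4 of 11 stromal integrins and 5 of 11 laminin chains. Of the leukocyte integrins, Itgb2l passed the filter on low counts at 2 weeks through the irradiated mice. Counts at 8 weeks were 5 of 8 leukocyte integrins, 2 of 6 epithelial integrins, 5 of 11 stromal integrins and 5 of 11 laminin chains. The median over all genes tested was within 0.02 of zero at each of these times. At 3 days the libraries of the same number deviated together, and with the replicate number as a block 22 members were higher and 2 lower. Over all 14449 genes tested at 3 days, 4153 were called with the block and 2968 without it. The block added Itga1, Itga6, Itga7, Itgb1 and Itgb6 to the higher members (edgeR adjusted p from 0.0295 to 0.0389) and called Itgae (adjusted p = 0.0191) and Itgb7 (adjusted p = 0.0108) lower. Leaving out irradiated replicate 1 or irradiated replicate 2 at 3 days left 10 higher members in each case. Calls over all genes were then 1301 and 1265. The controls of 3 days lay below those of 4 h for most members, with a median log2 difference of -0.37, and its part in the calls at 3 days was not tested. By class this median was -0.57 for laminin chains, -0.51 for stromal integrins, -0.44 for epithelial integrins and 0.29 for leukocyte integrins. At 2 weeks 8 members were higher without control replicate 1 and 9 without control replicate 3, and at 8 weeks 3 were lower without irradiated replicate 2. Over all genes these fits of 2 weeks called 1007 and 1179, against 3815 with all libraries. That fit of 8 weeks called 5391 genes, against 5739.

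**Figure D1:**
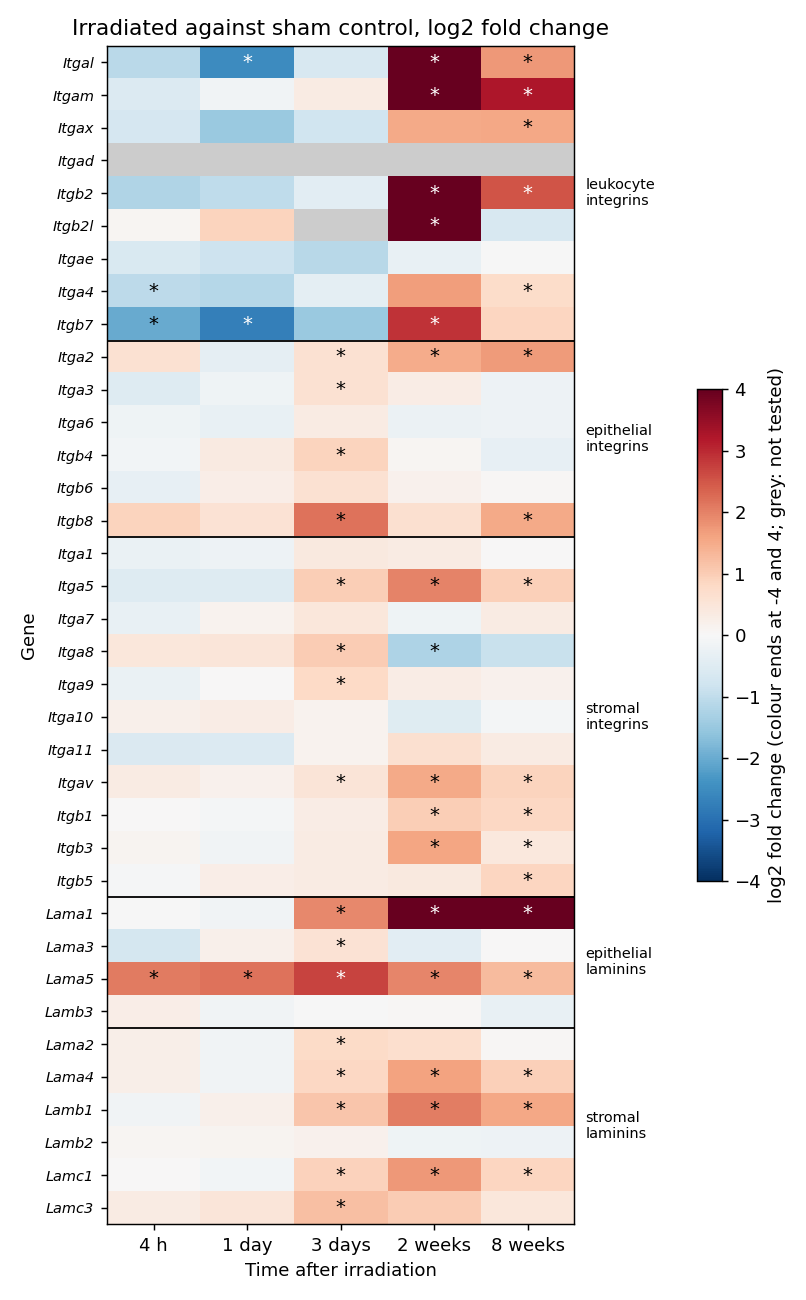
Log2 fold change of 36 of the members (rows, by class) in irradiated against control mice at each of the 5 times (columns). Asterisks mark an adjusted p under 0.05, grey fields were not tested, and colours end at -4 and 4. Lama5 carries an asterisk at all 5 times, and most leukocyte integrins turn from blue to red between 3 days and 2 weeks.

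Over the 5 times 27 members were higher at least once and 4 lower at least once, and each of these 4 (Itgal, Itga4, Itgb7 and Itga8) was also higher at another time. At 3 days but at neither 2 nor 8 weeks 8 were higher, 13 were higher at both 2 and 8 weeks, and 8 were higher at 3 days, 2 weeks and 8 weeks. The shares of all genes with these patterns were not counted. At single times, 10.4% of all genes were higher at 3 days, 16.5% at 2 weeks and 21.5% at 8 weeks. Only Lama5 was called at every time. The 10 members called at no time were Itga1, Itga6, Itga7, Itga10, Itga11, Itgad, Itgae, Itgb6, Lamb2 and Lamb3.

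Lama5, the alpha chain of the main laminin under adult intestinal epithelium and in vessel walls, was higher from the first time point to the last. At 4 h it was at 31.6, 38.3 and 55.7 CPM in the controls and 203, 157 and 174 CPM after irradiation. No irradiated mouse came near the controls, and the ratio was 4.19 (edgeR log2 fold change 2.07, SE 0.20, adjusted p = 0.000861). At 1 day the irradiated mice, against the same controls, were at 173, 224 and 178 CPM (edgeR log2 fold change 2.18, SE 0.21, adjusted p = 0.00109). The largest difference was at 3 days, with 45.1, 31 and 23.9 CPM in the controls and 216, 189 and 256 CPM after irradiation, a ratio of 6.49 (edgeR log2 fold change 2.70, SE 0.23, adjusted p = 0.000323). Levels then were lower in the irradiated mice but still above all controls. They were 39.3, 33.7 and 33.6 CPM in the controls and 193, 111 and 116 CPM after irradiation at 2 weeks (edgeR log2 fold change 1.97, SE 0.23, adjusted p = 0.00426). At 8 weeks they were 52.5, 43.3 and 44.4 CPM in the controls and 90.1, 155 and 102 CPM after irradiation (edgeR log2 fold change 1.27, SE 0.20, adjusted p = 0.00223). The groups overlapped at no time, and each of the 5 calls held under every alternative tried and without any single library, with a highest adjusted p of 0.0269 at 2 weeks. As FPKM, Lama5 changed from 3.86 ± 1.36 to 20.9 ± 2.22 at 3 days, a level close to that of Lama3, which was 20.4 ± 0.647 there. Lama5 lies on chromosome 2 from 179911078 to 179960564, minus strand, in NCBIM37 (mm9), and no other annotated gene overlapped it.

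**Figure D2:**
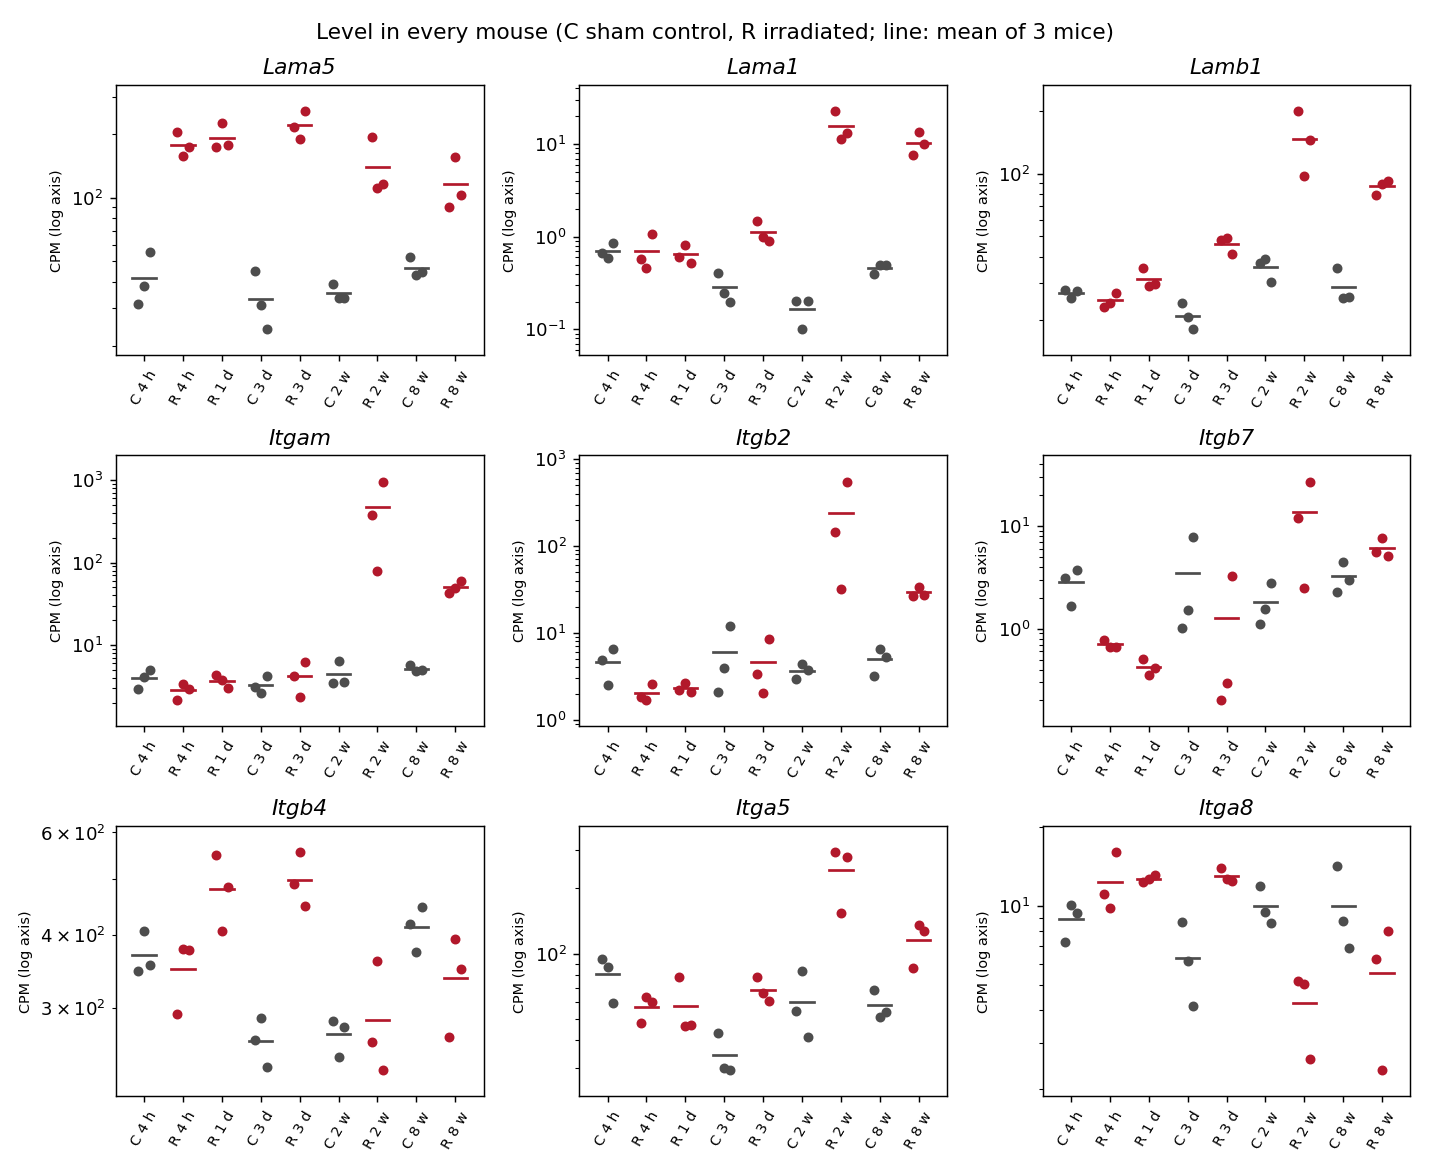
CPM on log axes in every mouse for 9 members across the 9 groups, controls (C) in grey and irradiated (R) in red, with lines at the mean of 3 mice. Lama5 is apart from its controls in each irradiated group, Lama1, Lamb1, Itgam and Itgb2 rise at 2 weeks, Itgb7 falls at 4 h and 1 day, and Itgb4 and Itga5 are higher at 3 days.

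Lama1, an alpha chain best known from embryonic basement membrane, was close to absent in the controls and rose late. At 2 weeks it was at 0.202, 0.1 and 0.2 CPM in the controls and 22.8, 11.4 and 13.2 CPM after irradiation. All irradiated mice exceeded 10 CPM where the controls held 2 to 4 counts per library, so that the ratio of 89.8 rests on few control reads (edgeR log2 fold change 6.49, SE 0.44, adjusted p = 0.00278). At 8 weeks it was at 0.395, 0.495 and 0.502 CPM in the controls and 7.62, 13.6 and 10 CPM after irradiation (edgeR log2 fold change 4.42, SE 0.31, adjusted p = 8.27e-05). At 3 days the levels were 0.41, 0.246 and 0.197 CPM in the controls and 1.47, 0.995 and 0.908 CPM after irradiation, which did not overlap (edgeR log2 fold change 1.94, SE 0.45, adjusted p = 0.0209), but this call was lost without any one of control replicates 2 and 3 and irradiated replicates 1 and 2 (highest adjusted p 0.105). On the scale of length Lama1 stayed low, at 1.53 ± 0.6 FPKM at 2 weeks and 0.992 ± 0.279 FPKM at 8 weeks. At 3 days, 2 weeks and 8 weeks Lama1 passed the filter on low counts through the irradiated mice. Its calls at these times are therefore not independent of that filter. Among the controls Lama1 was called lower at 2 weeks than at 4 h (edgeR log2 fold change -2.02, SE 0.48, adjusted p = 0.0454), a call near the threshold that was lost without any single library (adjusted p up to 0.156).

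Of the stromal chains Lamb1, Lamc1 and Lama4 rose at 3 days, 2 weeks and 8 weeks. All 6 stromal chains had lower levels in the controls of 3 days than in those of 4 h, with a median log2 difference of -0.63. The part of this in the calls at 3 days was not tested. Lamb1, a beta chain shared by several laminins, was at 24.1, 20.6 and 18 CPM in the controls and 48, 48.9 and 41.4 CPM after irradiation at 3 days (edgeR log2 fold change 1.11, SE 0.13, adjusted p = 0.00132). At 2 weeks it was at 37.4, 38.8 and 30.4 CPM in the controls and 199, 97.1 and 144 CPM after irradiation (edgeR log2 fold change 2.03, SE 0.27, adjusted p = 0.00535) and at 8 weeks at 35.3, 25.3 and 25.7 CPM in the controls and 79.3, 89.1 and 92.3 CPM after irradiation (edgeR log2 fold change 1.55, SE 0.15, adjusted p = 0.00027). Irradiated and control mice did not overlap at any of these times, and irradiated replicate 2 was the lowest of the 3 at 2 weeks. Lamc1, the gamma chain of most laminins, showed the same course, with edgeR log2 fold changes at these times of 0.92, 1.74 and 0.86 (adjusted p = 0.00217, 0.00807 and 0.00569). At 2 weeks Lamc1 was at 71.1, 66.4 and 46.1 CPM in the controls and 258, 142 and 219 CPM after irradiation. Lama4, the alpha chain of endothelial basement membrane, changed by 0.82, 1.61 and 0.94 on the log2 scale (adjusted p = 0.0035, 0.0122 and 0.00293). It was at 33.3, 30.8 and 23.1 CPM in the controls and 124, 57.6 and 88.8 CPM after irradiation at 2 weeks. Beside these chains, the sum of 6 endothelial markers was 393 to 659 CPM against 84.9 to 130 CPM in the controls at 2 weeks and 169.7 to 318 CPM against 83.3 to 132 CPM at 8 weeks, and the fibroblast sum at 3 days was 486 to 567 CPM against 308 to 411 CPM. The calls of Lamb1 and Lamc1 at these 3 times held under all alternatives, while that of Lama4 at 2 weeks was lost without control replicate 3 (adjusted p = 0.0526).

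Lamb2, the beta chain of mature vessel, muscle and nerve basement membranes, was by contrast called at no time. Its levels at 2 weeks were 215, 195 and 185 CPM in the controls and 173, 158 and 206 CPM after irradiation, with groups that overlapped (edgeR log2 fold change -0.16, SE 0.14, adjusted p = 0.438). At 8 weeks they were 209, 196 and 209 CPM in the controls and 148, 219 and 187 CPM after irradiation (edgeR log2 fold change -0.19, SE 0.14, adjusted p = 0.307). In FPKM, Lamb1 went from 6.08 ± 0.796 to 26.6 ± 8 at 2 weeks and Lamb2 from 39.2 ± 2.65 to 41.6 ± 8.42. Lama2, the alpha chain of muscle basement membrane, was called at 3 days only, at 9.47, 6 and 6.61 CPM in the controls and 15.5, 12.7 and 10.5 CPM after irradiation (edgeR log2 fold change 0.78, SE 0.23, adjusted p = 0.0455). Lamc3, a gamma chain of low level here, was likewise higher at 3 days only (edgeR log2 fold change 1.19, SE 0.33, adjusted p = 0.0384), at 1.02, 0.935 and 0.74 CPM in the controls and 2.54, 1.74 and 2.02 CPM after irradiation. Both were near the threshold. The call of Lamc3 was lost when any single library was left out, and that of Lama2 without any library but control replicate 1. At 8 weeks Lama2 was at 13.5, 10.5 and 9.98 CPM in the controls and 10.9, 11.1 and 13.8 CPM after irradiation, which overlapped. Lamb1 and Gm11053 overlap on opposite strands, and as no source used here gives the handling of strand, their reads cannot be told apart.

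**Figure D3:**
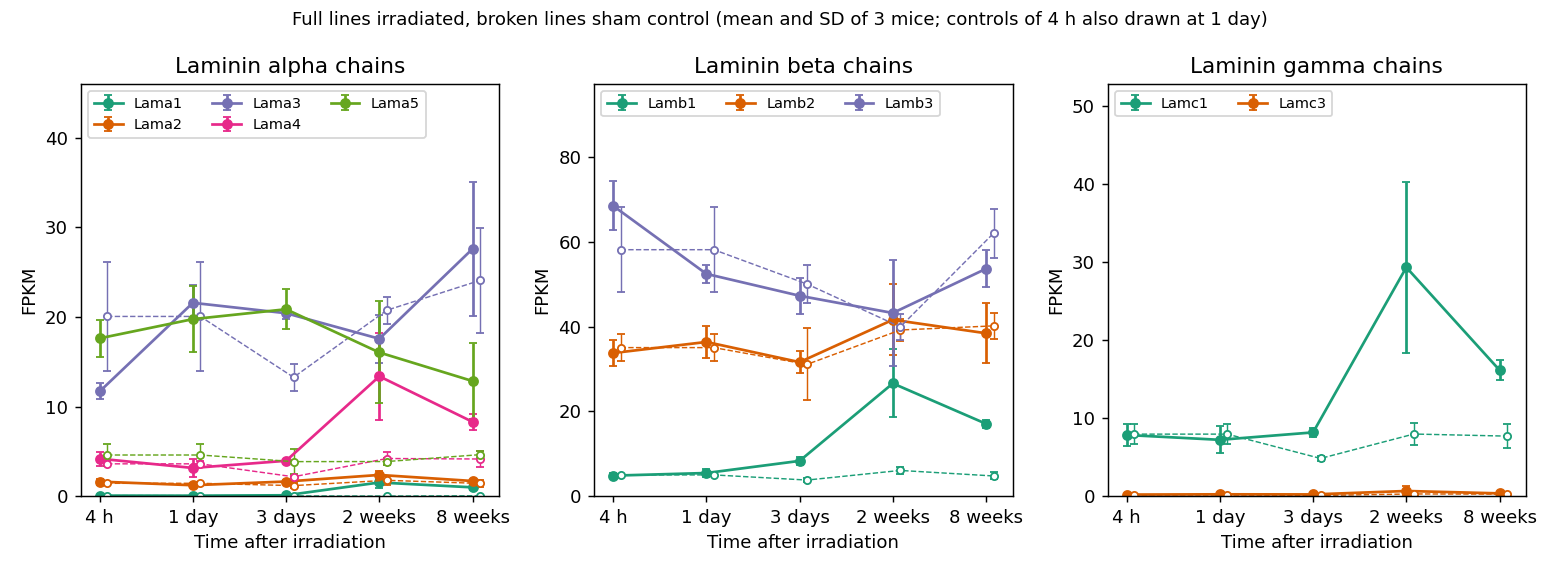
FPKM of 10 laminin alpha, beta and gamma chains (mean and SD of 3 mice) against time, full lines irradiated and broken lines control, with the controls of 4 h drawn also at 1 day. Lama5 is raised throughout, the means of Lama4, Lamb1 and Lamc1 are highest at 2 weeks, and Lamb2 stays beside its controls. The radiation effect on Lama4, Lamb1 and Lamc1 was not called different between 3 days and 2 weeks or between 2 and 8 weeks.

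Of Lama3 and Lamb3, the alpha and beta chains of the anchoring laminin of hemidesmosomes, only Lama3 was called, at 3 days. Lama3 was then at 118, 122 and 90.8 CPM in the controls and 171, 166 and 165 CPM after irradiation, with no overlap (edgeR log2 fold change 0.57, SE 0.12, adjusted p = 0.0156). Lamb3 was at 196, 229 and 194 CPM in the controls and 194, 225 and 200.1 CPM after irradiation, and the groups overlapped (edgeR log2 fold change -0.03, SE 0.11, adjusted p = 0.87). The call of Lama3 was lost without irradiated replicate 1 or 2 (highest adjusted p 0.0667). At 2 weeks all irradiated mice lay below all controls for Lama3, at 171, 165 and 186 CPM in the controls and 148, 118 and 126 CPM after irradiation, but it did not pass the test there (edgeR log2 fold change -0.42, SE 0.13, adjusted p = 0.0533). At 8 weeks, when squamous markers were abundant in all 3 irradiated libraries, Lama3 was at 134, 217 and 213 CPM in the controls and 162, 254 and 171 CPM after irradiation, with overlapping groups (edgeR log2 fold change 0.01, SE 0.23, adjusted p = 0.969). Lamb3 was at 250, 269.7 and 294 CPM in the controls and 217, 249 and 221 CPM after irradiation at that time (edgeR log2 fold change -0.29, SE 0.11, adjusted p = 0.0687). Neither chain was called at 8 weeks, and every irradiated mouse was below every control for Lamb3. Lama3 overlaps Gm17506 on the opposite strand.

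Of the receptor of that laminin, the beta subunit passed the test at 3 days. Itgb4, which pairs only with Itga6, was at 264, 288 and 237 CPM in the controls and 489.5, 555 and 448 CPM after irradiation at 3 days, and every irradiated mouse exceeded every control (edgeR log2 fold change 0.89, SE 0.12, adjusted p = 0.00253). Its partner Itga6 was at 315, 269 and 242 CPM in the controls and 359, 352 and 338 CPM after irradiation, a smaller difference also without overlap (edgeR log2 fold change 0.32, SE 0.11, adjusted p = 0.0885; with the replicate block adjusted p = 0.0295). At 2 weeks Itgb4 was back among its controls, at 285, 247 and 278 CPM in the controls and 262, 361 and 234 CPM after irradiation (edgeR log2 fold change 0.07, SE 0.19, adjusted p = 0.807), and at 8 weeks it was at 418, 373 and 446 CPM in the controls and 267, 394 and 349.9 CPM after irradiation (edgeR log2 fold change -0.34, SE 0.15, adjusted p = 0.119). Itga3, whose integrin with Itgb1 binds the same laminin and that of Lama5, was at 131, 145 and 124 CPM in the controls and 206, 226 and 193 CPM after irradiation at 3 days (edgeR log2 fold change 0.62, SE 0.11, adjusted p = 0.00678). At 4 h it was at 168, 240.3 and 183 CPM in the controls and 129, 143 and 147 CPM after irradiation, with all irradiated mice lower but no call (edgeR log2 fold change -0.52, SE 0.14, adjusted p = 0.0511). Of 7 tested hemidesmosome partners, 2 were higher at 3 days, Col17a1, a transmembrane collagen (edgeR log2 fold change 3.48, adjusted p = 0.000743), and Plec, which links to keratin (1.06, adjusted p = 0.00465). Col17a1 was also higher at 4 h (5.36, adjusted p = 0.000912) and 1 day (3.17, adjusted p = 0.00111). The median of the 7 was 0.12 against 0.00 over all genes. Among all genes 10.4% were higher at 3 days, and 21.5% were higher and 16.5% lower at 8 weeks. At 8 weeks 3 of 8 were higher and 2 lower, and the 3 were Col17a1 and the squamous keratins Krt5 and Krt14 with log2 fold changes of 8.03, 12.50 and 9.53. Krt5 passed the filter on low counts at 8 weeks but not at 3 days, and both keratins are also among the squamous markers.

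Other epithelial integrins rose at more than one time. Itga2, a collagen and laminin receptor, was at 17.6, 16.1 and 21.3 CPM in the controls and 46.6, 83 and 54.4 CPM after irradiation at 8 weeks (edgeR log2 fold change 1.70, SE 0.22, adjusted p = 0.000955) and at 12.9, 16.4 and 25 CPM in the controls and 57.1, 55.3 and 41.7 CPM after irradiation at 2 weeks (edgeR log2 fold change 1.49, SE 0.27, adjusted p = 0.0122). The groups were apart at both times and also at 3 days, where the change was smaller (edgeR log2 fold change 0.62, SE 0.14, adjusted p = 0.0167). The call at 8 weeks held in every setting. That at 2 weeks was lost without control replicate 2 (adjusted p = 0.0577), and that at 3 days without irradiated replicate 1 or 2 (adjusted p up to 0.0796). Itgb8, which with Itgav binds and activates latent TGF-beta, had its largest difference at 3 days, at 11.7, 9.1 and 23.7 CPM in the controls and 75.8, 59.9 and 72.1 CPM after irradiation (edgeR log2 fold change 2.19, SE 0.32, adjusted p = 0.00368). Each irradiated mouse was far above the highest control, replicate 3. At 2 weeks the groups overlapped, at 11.7, 15.2 and 22.3 CPM in the controls and 37.3, 18 and 23 CPM after irradiation (edgeR log2 fold change 0.65, SE 0.34, adjusted p = 0.193), and at 8 weeks it was at 10.3, 10.1 and 10.3 CPM in the controls and 22.8, 49.4 and 17.7 CPM after irradiation (edgeR log2 fold change 1.5, SE 0.35, adjusted p = 0.0128), a call lost without control replicate 3 (adjusted p = 0.0503). Itgb6, the other epithelial activator of TGF-beta, was called at no time, and at 3 days it was at 46, 22.9 and 40.6 CPM in the controls and 51.8, 53.7 and 65.5 CPM after irradiation (edgeR log2 fold change 0.61, SE 0.24, adjusted p = 0.106). It passed the test at 3 days with the block (adjusted p = 0.0339), in DESeq2, with all 9 groups in 1 fit and without control replicate 1. Of 9 genes of latent TGF-beta, its binding proteins and its carriers, 4 were higher at 3 days, 7 were higher and 1 lower at 2 weeks and 8 were higher at 8 weeks, with medians of 0.65, 1.89 and 1.5. The shares of all genes were 10.4% higher at 3 days, 16.5% higher and 9.3% lower at 2 weeks and 21.5% higher at 8 weeks.

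Leukocyte integrins held 4 of the 5 largest log2 fold changes of the family at 2 weeks, beside Lama1. Itgam, the alpha subunit of the neutrophil and macrophage integrin CD11b/CD18, was at 3.44, 6.37 and 3.6 CPM in the controls and 379, 80.2 and 957 CPM after irradiation. The lowest irradiated mouse, replicate 2, was more than 10-fold above the highest control and the highest, replicate 3, far above that (edgeR log2 fold change 6.71, SE 1.00, adjusted p = 0.00741). Itgb2, its beta subunit CD18, was at 2.93, 4.41 and 3.71 CPM in the controls and 144, 31.7 and 553 CPM after irradiation (edgeR log2 fold change 6.03, SE 1.09, adjusted p = 0.0122). Itgal, the alpha subunit of LFA-1 on lymphocytes and myeloid cells, was at 2.02, 1.66 and 2.45 CPM in the controls and 34, 5.21 and 186 CPM after irradiation (edgeR log2 fold change 5.19, SE 1.27, adjusted p = 0.0286). In all of these the irradiated mice stood in the same order, replicate 3 highest and replicate 2 lowest, as did the leukocyte marker sum. The calls of Itgb2 and Itgal were lost without any one of the 3 controls (adjusted p up to 0.0614 and 0.104), and that of Itgam held throughout. Itgb2l, a relative of Itgb2 known from mouse neutrophils, was at 0.202, 0.15 and 0.401 CPM in the controls and 19.1, 4.86 and 64 CPM after irradiation (edgeR log2 fold change 6.83, SE 1.15, adjusted p = 0.0103), with 3 to 8 counts per control library, and this call was lost without control replicate 1 (adjusted p = 0.0538). Itgb2l passed the filter on low counts here through the irradiated mice, so its call is not independent of that filter. Reads shared with Itgb2 may have been assigned to either, so its level is uncertain, and it overlaps Igsf5 on the opposite strand. Itgax, the subunit of CD11c on dendritic cells and macrophages, was at 3.08, 1.6 and 2.9 CPM in the controls and 4.64, 1.88 and 15.2 CPM after irradiation and overlapped (edgeR log2 fold change 1.51, SE 0.74, adjusted p = 0.173).

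At 8 weeks Itgam, Itgb2, Itgal and Itgax were higher. Itgam was at 5.67, 4.9 and 5.02 CPM in the controls and 42.3, 48.6 and 59 CPM after irradiation (edgeR log2 fold change 3.22, SE 0.15, adjusted p = 2.37e-05), and Itgb2 at 3.16, 6.49 and 5.32 CPM in the controls and 26.4, 33.5 and 27.6 CPM after irradiation (edgeR log2 fold change 2.5, SE 0.26, adjusted p = 0.000356). Itgax was at 3.01, 5.3 and 3.26 CPM in the controls and 10.5, 12.4 and 11.7 CPM after irradiation, so that each irradiated mouse exceeded each control (edgeR log2 fold change 1.53, SE 0.25, adjusted p = 0.00284). Itgal was at 2.71, 5.35 and 3.41 CPM in the controls and 15.5, 14.7 and 8.81 CPM after irradiation (edgeR log2 fold change 1.72, SE 0.33, adjusted p = 0.00525). The calls of Itgam, Itgb2 and Itgax held in all settings. Itgb2l was not called, at 0.691, 0.594 and 0.903 CPM in the controls and 0.631, 0.15 and 0.64 CPM after irradiation (edgeR log2 fold change -0.65, SE 0.56, adjusted p = 0.387). Of the 9 leukocyte markers 7 were higher at 2 weeks and 7 at 8 weeks, with medians of 4.59 and 2.14, and all 9 had counts in every irradiated library of these times. Between the controls of 2 or 8 weeks and those of 4 h, only 6 of the 9 passed the filter on low counts. The other markers passed through the irradiated mice, so their calls and the medians are not independent of that filter. Of the genes for ligands of leukocyte integrins on endothelium and epithelium, 5 of 8 were higher at 2 weeks (median 2.27), among them Icam1, the ligand of the Itgb2 integrins (5.51, edgeR adjusted p = 0.00531), and Vcam1, the ligand of the Itga4 integrins (3.50, adjusted p = 0.00301). At 8 weeks 4 of 8 were higher and 2 lower, and the lower ones were the epithelial F11r and Cdh1, the latter the ligand of the Itgae integrin. Beside these marker and ligand counts, 16.5% of all genes were higher and 9.3% lower at 2 weeks, and 21.5% and 16.5% at 8 weeks.

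**Figure D4:**
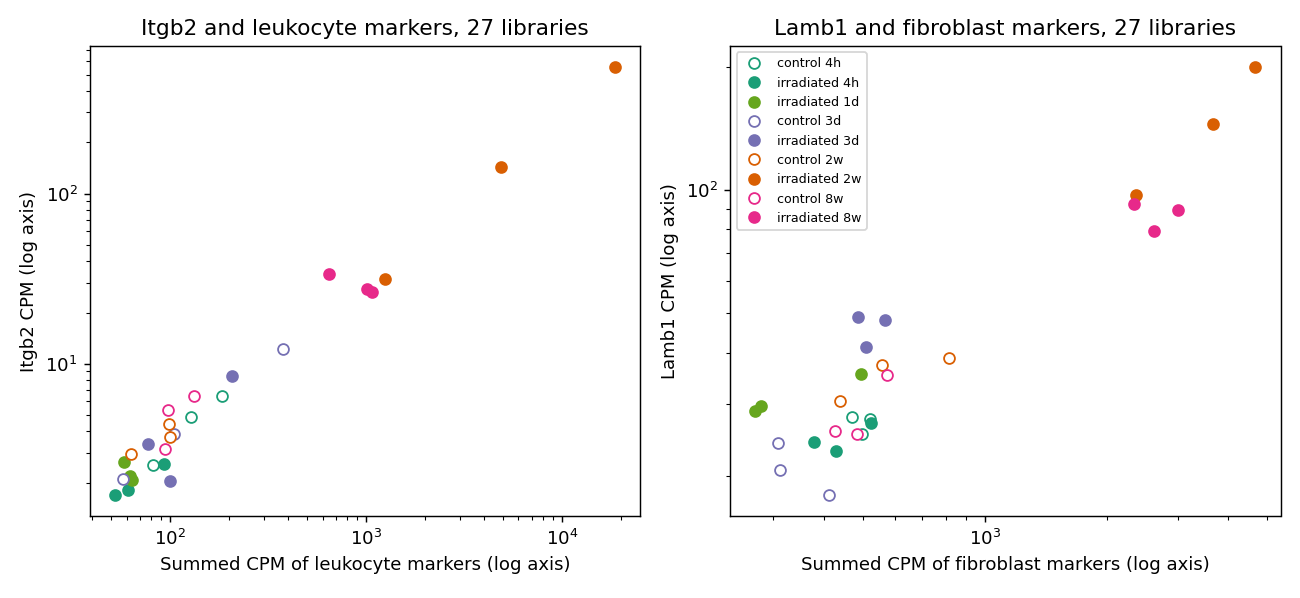
Each point is 1 of 27 libraries, open for controls and filled for irradiated mice, coloured by time, on log axes. Left, Itgb2 CPM against the summed CPM of 9 leukocyte markers, with the irradiated mice of 2 and 8 weeks at the upper right. Right, Lamb1 CPM against the summed CPM of 6 fibroblast markers, where the irradiated mice of 3 days exceed the controls of 3 days on both axes. The part of the marker shifts in either gene was not tested.

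Itgb7, Itga4 and Itgal, subunits of lymphocyte integrins, fell at 4 h or 1 day. Itgb7, the beta subunit of the gut homing integrin with Itga4 and of the retention integrin with Itgae, was at 3.11, 1.66 and 3.72 CPM in the controls and 0.778, 0.667 and 0.667 CPM after irradiation at 4 h, 4.05-fold lower (edgeR log2 fold change -2.02, SE 0.39, adjusted p = 0.0141). At 1 day the irradiated mice were at 0.505, 0.355 and 0.412 CPM against the same controls (edgeR log2 fold change -2.73, SE 0.42, adjusted p = 0.011). No irradiated mouse of either time reached the lowest control. Itga4 was at 17.7, 10.9 and 21.3 CPM in the controls and 8.56, 7.19 and 8.51 CPM after irradiation at 4 h (edgeR log2 fold change -1.06, SE 0.24, adjusted p = 0.0245) and at 9.05, 7.41 and 6.18 CPM in the irradiated mice of 1 day (edgeR log2 fold change -1.15, SE 0.26, adjusted p = 0.0527). Itgal at 1 day was at 0.253, 1.07 and 0.618 CPM, against 4.13, 1.95 and 5.03 CPM in the controls (edgeR log2 fold change -2.52, SE 0.53, adjusted p = 0.0397). At 1 day Itgb7 and Itgal passed the filter on low counts through the controls, so their lower calls are not independent of that filter. These low levels gave calls that depended on single libraries and on the fit. At 4 h 0 members were lower without irradiated replicate 2 and 4 without control replicate 2. Without control replicate 1, or with all 9 groups in 1 fit, Itga3 and Lama3 were lower at 4 h and Itgb7 and Itga4 were not. The call of Itga4 at 4 h was lost without any single library but control replicate 2 (edgeR adjusted p up to 0.0948). At 1 day 0 members were lower without control replicate 1, irradiated replicate 2 or irradiated replicate 3, and 5 without control replicate 2. The call of Itgal at 1 day was lost without any single library but control replicate 2 (edgeR adjusted p up to 0.145). With limma on log2(FPKM + 1), the calls of Itgb7 at both times and of Itga4 at 4 h were lost where genes of low FPKM were left out, and without that filter Itgb7 was called at both times (adjusted p = 0.0483 and 0.0468) and Itga4 was not. The leukocyte marker sum was 81.9 to 183 CPM in these controls, 52.3 to 92.9 CPM at 4 h and 58.2 to 63.7 CPM at 1 day after irradiation, and the part of this shift in the subunits was not tested. At 2 weeks Itgb7 was at 1.11, 1.55 and 2.8 CPM in the controls and 11.9, 2.48 and 27 CPM after irradiation, where irradiated replicate 2 lay within the controls, and the call was near the threshold (edgeR log2 fold change 2.91, SE 0.84, adjusted p = 0.0468) and was lost without any single library but irradiated replicate 2. Itga4 was called higher at 8 weeks, at 8.19, 9.51 and 9.43 CPM in the controls and 13.6, 20.1 and 13.3 CPM after irradiation (edgeR log2 fold change 0.75, SE 0.19, adjusted p = 0.0192), and this was lost without any one of the 3 controls. Itgae, the alpha subunit of intraepithelial lymphocytes, was not called at 4 h (edgeR log2 fold change -0.62, SE 0.28, adjusted p = 0.18) or 1 day (edgeR log2 fold change -0.83, SE 0.30, adjusted p = 0.193). It was at 3.53, 3.3 and 5.28 CPM in the controls and 1.83, 1.19 and 2.73 CPM after irradiation at 3 days, apart from the controls (edgeR log2 fold change -1.10, SE 0.38, adjusted p = 0.0734; with the block adjusted p = 0.0191), and it overlaps Gsg2 on the opposite strand.

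Among stromal integrins the fibronectin and vitronectin receptors rose. Itga5, the alpha subunit of the fibronectin receptor, was at 43.4, 30 and 29.2 CPM in the controls and 78.6, 66 and 60.5 CPM after irradiation at 3 days (edgeR log2 fold change 0.97, SE 0.17, adjusted p = 0.00743). At 2 weeks it was at 54.6, 83.6 and 41.6 CPM in the controls and 293, 153 and 279 CPM after irradiation (edgeR log2 fold change 2, SE 0.34, adjusted p = 0.0109) and at 8 weeks at 68.1, 51.4 and 54.1 CPM in the controls and 86.1, 135 and 127 CPM after irradiation (edgeR log2 fold change 0.96, SE 0.18, adjusted p = 0.00516). Groups were apart at all 3 times, and the call at 2 weeks was lost without control replicate 1 (adjusted p = 0.0557). Itgav, the alpha subunit shared by vitronectin and TGF-beta binding integrins, was at 67.6, 69.2 and 64 CPM in the controls and 261, 134 and 190.4 CPM after irradiation at 2 weeks (edgeR log2 fold change 1.53, SE 0.24, adjusted p = 0.00835). It was also higher at 3 days and 8 weeks, by 0.52 and 0.90 on the log2 scale (adjusted p = 0.0204 and 0.0159), calls that were lost without control replicate 2, among others, at either time. Itgb1 was at 353, 425 and 344 CPM in the controls and 829, 662 and 738 CPM after irradiation at 2 weeks (edgeR log2 fold change 0.98, SE 0.16, adjusted p = 0.00938) and at 302, 292 and 290.3 CPM in the controls and 529, 622 and 473 CPM after irradiation at 8 weeks (edgeR log2 fold change 0.83, SE 0.12, adjusted p = 0.00182). All irradiated mice exceeded all controls at both times, and the call at 2 weeks was lost without control replicate 1 or 3 (adjusted p up to 0.0612).

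The beta partners of Itgav were called at different times. In edgeR with all libraries, the effects at 2 and 8 weeks were not called different for Itgb3 or Itgb5. Itgb3, a partner on platelets, endothelium and macrophages, was at 22.4, 29.9 and 22.1 CPM in the controls and 109.5, 46.9 and 68.4 CPM after irradiation at 2 weeks (edgeR log2 fold change 1.58, SE 0.32, adjusted p = 0.0159) and at 22.4, 19.6 and 19.7 CPM in the controls and 28.4, 28.6 and 28.1 CPM after irradiation at 8 weeks (edgeR log2 fold change 0.42, SE 0.10, adjusted p = 0.0133). Itgb5 was called at 8 weeks only, at 54.5, 47.8 and 51.6 CPM in the controls and 108, 94.6 and 86.6 CPM after irradiation (edgeR log2 fold change 0.87, SE 0.11, adjusted p = 0.00106), while at 2 weeks it was at 48.6, 52.8 and 53.9 CPM in the controls and 63, 69.5 and 73.3 CPM after irradiation, also without overlap (edgeR log2 fold change 0.39, SE 0.12, adjusted p = 0.0508). Itgb5 passed the test at 2 weeks in DESeq2, in edgeR with DESeq2 size factors, in the limma fits and with all 9 groups in 1 fit. Both calls of Itgb3 depended on single controls, replicates 1 and 3 at 2 weeks and replicates 2 and 3 at 8 weeks. Of the matrix ligands of integrins, which include fibronectin, osteopontin and tenascin, 7 of 14 were higher at 3 days, 13 of 17 at 2 weeks and 13 of 17 at 8 weeks, and 0 were lower at these times. Spp1 and Tnn, both among the 13, were tested at 2 and 8 weeks but not at 3 days, since they passed the filter on low counts through the irradiated groups, so their calls are not independent of that filter. The medians were 0.75, 2.61 and 2.45. Higher calls were made for 10.4% of all genes at 3 days, 16.5% at 2 weeks and 21.5% at 8 weeks. Ctgf, a matrix-bound growth factor partner, had an edgeR log2 fold change of 3.29 at 2 weeks (adjusted p = 0.00298), and Spp1, or osteopontin, was higher at 8 weeks by 12.01 (adjusted p = 2.73e-06).

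Itga8 was the 1 member called higher at one time and lower at a later one among the stromal subunits. This receptor of nephronectin, known from smooth muscle and mesenchyme, was at 8.66, 6.15 and 4.14 CPM in the controls and 13.9, 12.7 and 12.5 CPM after irradiation at 3 days (edgeR log2 fold change 1.02, SE 0.26, adjusted p = 0.0265). At 2 weeks it was at 11.9, 9.43 and 8.56 CPM in the controls and 5.15, 5.01 and 2.61 CPM after irradiation (edgeR log2 fold change -1.24, SE 0.30, adjusted p = 0.0281). Groups were apart at both times, in opposite directions. At 8 weeks it was at 14.1, 8.77 and 6.92 CPM in the controls and 6.26, 2.36 and 8.03 CPM after irradiation, with overlap (edgeR log2 fold change -0.88, SE 0.45, adjusted p = 0.163). The call at 3 days was lost without control replicate 2 or any 1 irradiated mouse, and that at 2 weeks without any 1 control. The summed smooth muscle markers, of which 5 of 6 were measured, were 2464 to 2841 CPM against 3472 to 4908 CPM in the controls at 2 weeks and 2428 to 3331 CPM against 1962 to 2750 CPM at 3 days. Itga9, a tenascin receptor, was called at 3 days only, at 13.8, 10.1 and 12.1 CPM in the controls and 21.9, 22 and 19.4 CPM after irradiation (edgeR log2 fold change 0.78, SE 0.15, adjusted p = 0.00927). The collagen receptors Itga1, Itga10 and Itga11 and the muscle laminin receptor Itga7 were called at no time, with log2 fold changes from -0.57 to 0.66 over the 5 times. Itga1 was at 106, 118 and 89.7 CPM in the controls and 159, 95.5 and 144 CPM after irradiation at 2 weeks (edgeR log2 fold change 0.34, SE 0.21, adjusted p = 0.272), and at 8 weeks its groups overlapped as well (edgeR log2 fold change 0.01, SE 0.11, adjusted p = 0.929). Beside the block, Itga1 passed the test at 3 days without control replicate 1 (adjusted p = 0.0193) and at 2 weeks without irradiated replicate 2 (adjusted p = 0.0309), and Itga7 at 3 days with total-count scaling and at 8 weeks without irradiated replicate 1 (adjusted p = 0.0438). Itga1 shares its locus and strand with Pelo.

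Whether the radiation effect differed between times was tested directly, as an interaction. Between 3 days and 2 weeks, 6 of 36 members were called higher at the later time and 4 lower, where 10.2% and 6.96% of all genes were. The effect was larger at 2 weeks for Itgam, Itgb2, Itgal, Lama1, Itgav and Itgb1, and smaller or turned for Itga8, Lama3 and Itgb4, among others. For Lama3 the difference of the log2 fold changes was -1 (SE 0.18, edgeR adjusted p = 0.0058). The count of higher members was 3 without irradiated replicate 1 or 2 of 3 days or without control replicate 1 of 2 weeks, and 15 without irradiated replicate 2 of 2 weeks. Over all genes these fits called, in the same order, 1353, 1416, 1324 and 4060, against 2616 with all libraries. Between 2 and 8 weeks 0 members were higher and 1 lower, Itgb2l, where 0.784% and 0.495% of all genes were. Leaving out irradiated replicate 2 of 2 weeks gave 9 lower members, with 1222 calls over all genes against 199 with all libraries. The call of Itgb2l was lost without any 1 control of either time or irradiated replicate 1 of 8 weeks (adjusted p up to 0.0749). Lama5 was not called in either test, with differences of -0.74 (SE 0.35, edgeR adjusted p = 0.165) and -0.68 (SE 0.33, edgeR adjusted p = 0.326).

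Sham groups of different times were also compared. Between the controls of 3 days and of 4 h, 0 of 35 members were called by edgeR and 0% of all genes were. An unadjusted edgeR p under 0.05 was found for 16 members, all with lower levels at 3 days. DESeq2, which called 504 of 18233 genes, called 7 members lower. They were Itga1, Itga3, Itga5, Itga9, Itgb4, Lama4 and Lamc1, all but Itga1 called higher by edgeR in irradiated against control mice at 3 days. The median log2 difference of the members given above, -0.37, compares with 0.02 over all genes. In the controls of 2 weeks against 4 h, 0 were higher and 2 lower, Itgb4 and Lama1 (2.94% and 3.67% of all genes were called), and in those of 8 weeks 0 were higher and 2 lower, Itgb8 and Itgb1 (1.29% and 1.53%). Itgb8 was at 10.3, 10.1 and 10.3 CPM in the controls of 8 weeks and at 29.1, 20.6 and 14.4 CPM in those of 4 h (edgeR log2 fold change -1.05, SE 0.22, adjusted p = 0.0494). These 4 calls were near the threshold. Those of Lama1 and Itgb1 were lost without any single library, that of Itgb8 without any but control replicate 3 of 4 h, that of Itgb4 without any but control replicate 1 of 4 h, and all 4 with the replicate block.

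The proteins around the members were counted in the same fits. Of 17 laminin partners and receptors, such as the nidogens, perlecan and the basement membrane collagens, 7 were higher and 1 lower at 3 days, 9 higher and 0 lower at 2 weeks and 10 higher and 0 lower at 8 weeks, with medians of 0.22, 0.95 and 1.08. Nid1, which joins laminin to collagen IV, had a log2 fold change of 1.97 at 2 weeks (edgeR adjusted p = 0.00482), and Col4a1 2.66 (adjusted p = 0.00298). Integrin adaptors and activators inside the cell were called in both directions. Of 28, 6 were higher and 2 lower at 3 days, 5 and 5 at 2 weeks and 6 and 7 at 8 weeks, with medians of 0.16, 0.19 and -0.06. All genes tested were higher and lower at shares of 10.4% and 10.1% at 3 days, 16.5% and 9.3% at 2 weeks, and 21.5% and 16.5% at 8 weeks. Fermt3, the kindlin of blood cells, was higher by 3.98 at 2 weeks (edgeR adjusted p = 0.00862) and by 2.48 at 8 weeks (adjusted p = 0.000262), and Tns4, an epithelial tensin, fell by 1.68 at 8 weeks (adjusted p = 5.15e-05). At 4 h 0 of 28 adaptors were higher and 3 lower, and at 1 day 0 and 2. The shares of all genes were 5.78% and 5.72% at 4 h and 1.97% and 2.03% at 1 day.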

How the data were processed

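Poly(A) RNA of 27 rectal samples was sequenced, with 9 groups of 3 mice. Per the labels and the study's methods, the authors cleaned the reads in fastp 0.18.0 and mapped these by HISAT2 on the mm9 genome, with StringTie 1.3.1 for transcript assembly and RSEM for FPKM. They deposited whole read counts per gene and, in the same table layout, FPKM, which the authors scaled by gene length and library. No source used here names the counting program, its strand setting or the release of the gene annotation.

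Counts were tested in edgeR 4.0.16 (R 4.3.3) by the quasi-likelihood test, with TMM scaling, the filterByExpr filter and only the compared groups in each fit. Benjamini-Hochberg adjustment ran over all genes tested, with calls under 0.05. Interactions used the 4 groups concerned. Alternatives in edgeR were scaling by total counts or by DESeq2 size factors, and no filter or 1 CPM in 3 libraries. Others were all 9 groups in 1 fit, a block on replicate number, and each library left out in turn. DESeq2 1.42.0 and limma 3.58.1 were also run. The limma fits used log2(FPKM + 1) with a mean FPKM of at least 1 or no filter, and log2(FPKM + 0.1). Libraries of 17966356 to 23281174 counts limit the precision of members with few reads, and counting error is part of the spread between mice.

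What the replicate numbers mean is not given in the labels. At 3 days libraries of the same number deviated together (correlations of 0.343, 0.413 and 0.426, at most 0.0667 for other pairs), so the blocked result is given there. At the other times this did not hold for every pair. The members and gene lists were chosen with earlier results of these data known. Values of every mouse were to be given, in each class, for the 4 members with the smallest p at 2 or 8 weeks and the 2 with the smallest p at the earlier times, if they reached 1 CPM, and for Lama3, Lamb3, Itga6, Itgb4, Itgb1, Itgb2, Itgb6 and Itgb7. Of the other gene lists the 3 genes with the smallest p could be named, and any further gene was chosen after its values were seen. Coordinates are those of NCBIM37, with all 37 members matched by Ensembl identifier and name, and promoters come from RefSeq on GRCm38.p6. A gene of the family is included in the counts but is not reported here. Figures were drawn with matplotlib 3.10.9. The tests were tried on simulated data first.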

Additional observations from a re-analysis of the deposited data

Results flagged for a closer look

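The radiation effect itself differed between times for the following members, tested as an interaction in edgeR with adjusted p under 0.05. From 3 days to 2 weeks the log2 fold change was larger by 6.451 for Itgb2, 6.38 for Itgam, 5.836 for Itgal, 4.547 for Lama1, 1.002 for Itgav and 0.6721 for Itgb1. Over the same interval the difference was -2.262 for Itga8, -1 for Lama3 and -0.8306 for Itgb4. From 2 to 8 weeks it was -7.467 for Itgb2l, whose control libraries held few counts. No formal test for outlying samples was run in groups of 3 mice, but each library was left out in turn. Libraries that stood apart in marker sums are given above.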

How the results depend on the processing

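Under the alternatives, 5652 of 6020 member values kept their direction and side of the threshold, 166 gained a call, 202 lost one and 0 changed direction when called. Of 56 calls at the 5 times, 28 held in every setting. DESeq2 called 2 members higher and 6 lower at 4 h, 4 lower at 1 day, 1 lower at 3 days, 2 lower at 2 weeks and 1 lower at 8 weeks, 11 higher between 3 days and 2 weeks and 4 lower between 2 and 8 weeks. In the controls against those of 4 h DESeq2 gave 7 lower at 3 days, 2 higher at 2 weeks, and 1 higher and 4 lower at 8 weeks. Total-count scaling gave 4 lower at 4 h, 1 higher in the controls of 2 weeks and 0 lower in those of 8 weeks, and moved the median of all genes by 0.14 at 8 weeks. limma on log2 FPKM gave 0 lower at 4 h and 1 day, without the filter 1 at each, with the filter 0 lower at 2 weeks, 0 lower between 2 and 8 weeks on log2(FPKM + 1), and 0 lower in the controls of 2 and 8 weeks. Without the filter on low counts 1 was lower in the controls of 2 weeks and 1 in those of 8 weeks, and with 1 CPM in 3 libraries 1 in those of 2 weeks. All 9 groups in 1 fit gave 0 lower at 1 day, 1 lower at 3 days, 11 higher between 3 days and 2 weeks, 4 lower between 2 and 8 weeks, and in the controls 1 lower at 3 days, 1 at 2 weeks and 0 at 8 weeks. The cause of these differences was not tested.

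The replicate block gave 2 higher at 4 h (Itga2, adjusted p = 0.0344), 1 lower at 1 day (Itgal lost, adjusted p = 0.0897) and 2 lower at 3 days. It called Itgb7 higher at 8 weeks (adjusted p = 0.0337), left 0 lower in the controls of 2 and 8 weeks, and between 3 days and 2 weeks added Itga6, Itgb2l, Itgb7 and Itgb8. Beyond these and the calls added at 3 days it changed no call of a member.

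Leaving out 1 library gave 1 to 2 higher and 0 to 4 lower at 4 h, 0 to 5 lower at 1 day, 10 to 20 higher at 3 days, 8 to 18 higher and 0 to 2 lower at 2 weeks, and 14 to 18 higher and 0 to 3 lower at 8 weeks. Between 3 days and 2 weeks it gave 3 to 15 higher and 3 to 5 lower, between 2 and 8 weeks 0 to 9 lower, and in the controls 0 to 5, 0 to 2 and 0 to 2 lower at 3 days, 2 weeks and 8 weeks. Calls over all genes with 1 library left out ranged from 791 to 1335 at 4 h and from 217 to 701 at 1 day. They ranged from 1265 to 3244 at 3 days, 1007 to 6054 at 2 weeks and 3879 to 6159 at 8 weeks. Depth limited Itgad, Itgb2l and Lama1 in the controls, where libraries held few counts.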
